A study of Homo sapiens with 8 samples.

Results

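Type I collagen mRNA is copied from COL1A1 and COL1A2, the genes of its 2 kinds of chain, and its LARP6 binding regions were read here from eCLIP peak lists of human hepatic stellate cells. A region belonged to a gene when its midpoint lay within the RefSeq bounds on GRCh38 and it was on the gene's strand. COL1A1 lies on the minus strand of chromosome 17 from 50184101 to 50201631 (17531 nt), and COL1A2 on the plus strand of chromosome 7 from 94394895 to 94431227 (36333 nt). By this rule the 6 lists held 1416 type I collagen regions of 178461 in all, of which 655 were in COL1A1 and 761 in COL1A2. No cluster within these bounds was on the opposite strand in any of the 4 libraries, and assigning every region among all annotated genes gave the same 655 and 761 regions.

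The TGFβ1 group was wild-type stellate cells given TGFβ1 at 5 ng/ml, and the control group was the same kind of cells without it, which the labels call both untreated and DMSO. Each group had 2 libraries from immunoprecipitation with an anti-LARP6 antibody and 2 size-matched inputs. In eCLIP, ultraviolet light crosslinks protein to RNA, the RNA is trimmed by RNase I and immunoprecipitated, and the fragments are sequenced and set against RNA of the same gel position without immunoprecipitation. Each of the 4 immunoprecipitated libraries had a list of tested clusters, and each condition had a list of reproducible peaks that the authors made from both of its replicates. The word reproducible here names that list, and a peak in it need not be enriched in each replicate alone. The labels name the cells only as HSCs, and their origin is not given in the sources used here. Nothing in the labels makes the replicates separate cultures, and p-values then measure only the spread between these libraries, which may be technical.

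The 4 libraries held 31137, 54536, 51273 and 39880 tested clusters in TGFβ1 replicates 1 and 2 and control replicates 1 and 2. Read depth is unknown, since the lists hold no counts. Of 15 stellate cell markers, 10 to 12 had a tested cluster in a library, and DES, LRAT and RGS5 had none in any. Hepatocyte and endothelial markers had none (0 of 5 each), macrophage markers had 1 of 5 (CD68), and cholangiocyte markers had 2 of 4 (KRT7 and SOX9).

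Type I collagen is the main protein of scar tissue in the fibrotic liver, and activated stellate cells are its chief source. Its chains are made on ribosomes of the endoplasmic reticulum and fold into a triple helix, whose sequence is a regular repeat with glycine. LARP6 is a La-related protein that is known to bind a stem-loop around the start codon of type I and type III collagen mRNAs and to act on their translation. Values are given here for that 5′ end and for the remainder of each gene.

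Both mRNAs were far above the background of the libraries. A cluster was called enriched at an authors' log2 fold over input of at least 3 and an authors' −log10 p-value of at least 3. In COL1A1, 28 of 164 and 41 of 195 tested clusters were enriched in TGFβ1 replicates 1 and 2, against 16 of 95 and 36 of 146 in control replicates 1 and 2. In COL1A2 these were 46 of 165 and 62 of 193 in the TGFβ1 libraries, against 21 of 146 and 54 of 162 in the control libraries. Over all clusters of a library, 2.69% and 3.64% were enriched in TGFβ1 replicates 1 and 2 and 1.21% and 2.09% in control replicates 1 and 2. The shares for COL1A1 were 17.1% and 21.0% in the TGFβ1 libraries (95% Wilson intervals 12.1 to 23.6 and 15.9 to 27.3) and 16.8% and 24.7% in the control libraries (10.6 to 25.6 and 18.4 to 32.2). Those for COL1A2 were 27.9% and 32.1% in the TGFβ1 libraries (21.6 to 35.2 and 25.9 to 39.0) and 14.4% and 33.3% in the control libraries (9.60 to 21.0 and 26.5 to 40.9). The intervals cover counting error only, and neighbouring clusters are not independent.

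The share in COL1A1 was 6.89 and 6.05 times that of all other regions in TGFβ1 replicates 1 and 2, against 14.7 and 13.1 times in control replicates 1 and 2. The share in COL1A2 was 11.3 and 9.24 times that of all other regions in the TGFβ1 libraries, against 12.6 and 17.7 times in the control libraries. Both control libraries were thus above both TGFβ1 libraries on this ratio in each gene, where all other regions had 2.48% and 3.48% enriched in the TGFβ1 libraries and 1.14% and 1.88% in the control libraries. Both genes were above them in 4 of 4 libraries, by 17.7 and 24.7 percentage points on average. An exact sign-change test over the 4 libraries gave p = 0.125 for each, two-sided, the smallest that 4 libraries allow, and 0.281 after Benjamini-Hochberg adjustment over the 9 library tests made here. Clusters of both genes were narrower than elsewhere, with a median width of 10 to 14 nt against 47 to 50 nt. Counted by nucleotide instead, 22.6% to 27.1% of the tested length of COL1A1 and 18.8% to 31.3% of that of COL1A2 was enriched, against 1.02% to 3.40% of all other tested length.

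**Figure D1:**
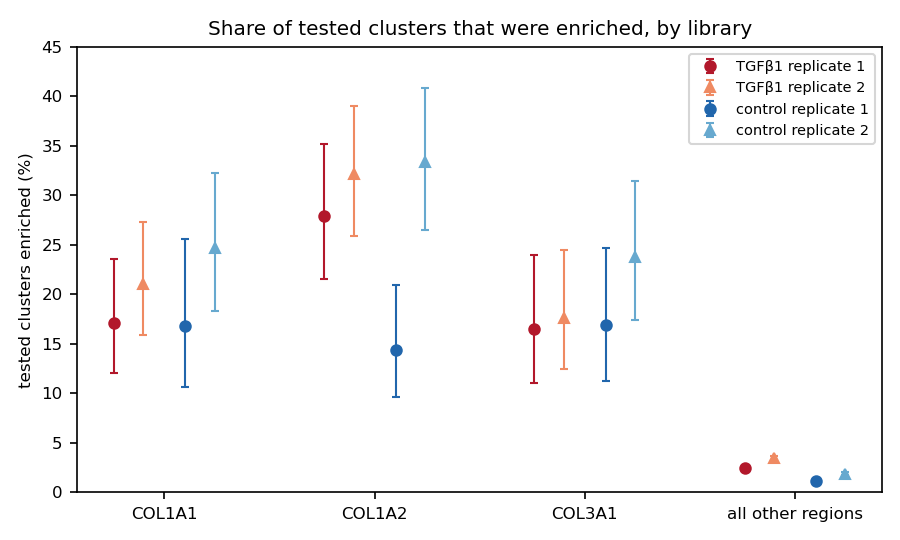
Percent of tested clusters that were enriched in COL1A1, COL1A2, the type III collagen gene COL3A1 and all other regions, with 1 point for each library (TGFβ1 left, control right) and 95% Wilson intervals as bars. Both type I collagen genes stand above all other regions in every library, and control replicate 1 is the low point of COL1A2 at 14.4%.

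Nearly every tested cluster of these genes lay above its input even where it was not called. The log2 fold was above 0 for 97.6% and 96.4% of COL1A1 clusters in TGFβ1 replicates 1 and 2 and for 100% in both control libraries. For COL1A2 it was above 0 for 100% in both TGFβ1 libraries and for 99.3% and 100% in control replicates 1 and 2. For all other regions the share was 80.8% and 78.8% in the TGFβ1 libraries and 73.1% and 73.4% in the control libraries. The median log2 fold of COL1A1 clusters was 2.17 ± 0.05 in TGFβ1 and 2.13 ± 0.10 in control libraries (SD, n = 2 each). That of COL1A2 was 2.38 ± 0.15 in TGFβ1 and 2.18 ± 0.33 in control libraries. All other regions had a median log2 fold of 0.85 ± 0.12 in TGFβ1 and 0.61 ± 0.33 in control libraries. The fold limit of 3 lay within a continuous range, with 1 to 8 clusters of a gene and library up to 0.1 below the limit and 0 to 8 up to 0.1 above it.

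The first site, at the very 5′ end, was the strongest of each gene in all 4 libraries. Sites were formed from the reproducible peaks of both conditions, joined where at most 20 nt apart and numbered from the 5′ end. Positions count from 1 at the first base of the gene and run along the gene with its introns, not along the mRNA. COL1A1 site 1 ran from position 6 to 180 (GRCh38 chromosome 17, 50201452 to 50201626, minus strand), and COL1A2 site 1 from position 22 to 197 (chromosome 7, 94394916 to 94395091, plus strand). Every tested cluster in it was enriched and at the −log10 p cap of 400. The highest log2 fold in COL1A1 site 1 was 7.59 and 7.79 in TGFβ1 replicates 1 and 2, against 7.91 and 7.70 in control replicates 1 and 2. In COL1A2 site 1 it was 7.70 and 8.05 in the TGFβ1 libraries, against 7.27 and 8.13 in the control libraries. The highest folds of TGFβ1 and control libraries overlapped at both sites. These maxima ranked 21st to 43rd among all clusters of their library in COL1A1 and 12th to 33rd in COL1A2. The reproducible lists gave 7 TGFβ1 and 5 control peaks in COL1A1 site 1, and 3 TGFβ1 and 4 control peaks in COL1A2 site 1.

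Within this site the fold stepped up along the gene, at nearly the same base in every library. In COL1A2 the first cluster ended at position 128 in all 4 libraries. Before that base the log2 fold was 6.39 and 6.50 in TGFβ1 replicates 1 and 2, against 6.31 and 6.61 in control replicates 1 and 2. At position 150 it was 7.70 and 8.05 in the TGFβ1 libraries, against 7.27 and 8.13 in the control libraries, so each library was higher after the step than before it. In COL1A1 the clusters of higher fold began at position 60 in both TGFβ1 libraries, against 56 and 59 in control replicates 1 and 2. At position 50 the log2 fold was 5.48 and 5.60 in the TGFβ1 libraries, against 5.79 and 6.20 in the control libraries. At position 80 it was 7.02 and 7.20 in the TGFβ1 libraries, against 7.43 and 7.70 in the control libraries. At both positions the 2 control libraries were above the 2 TGFβ1 libraries, by less than 1 log2 unit. The highest COL1A1 cluster was narrow and began at position 104 in both TGFβ1 libraries, at 109 in control replicate 1 and at 92 in control replicate 2. In control replicate 2 the adjoining cluster from 59 to 91 was practically level with it, both at 7.70, so the place of that maximum is not distinct. The annotation used here holds no exons or start codons, so these positions were not placed against the stem-loop.

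**Figure D2:**
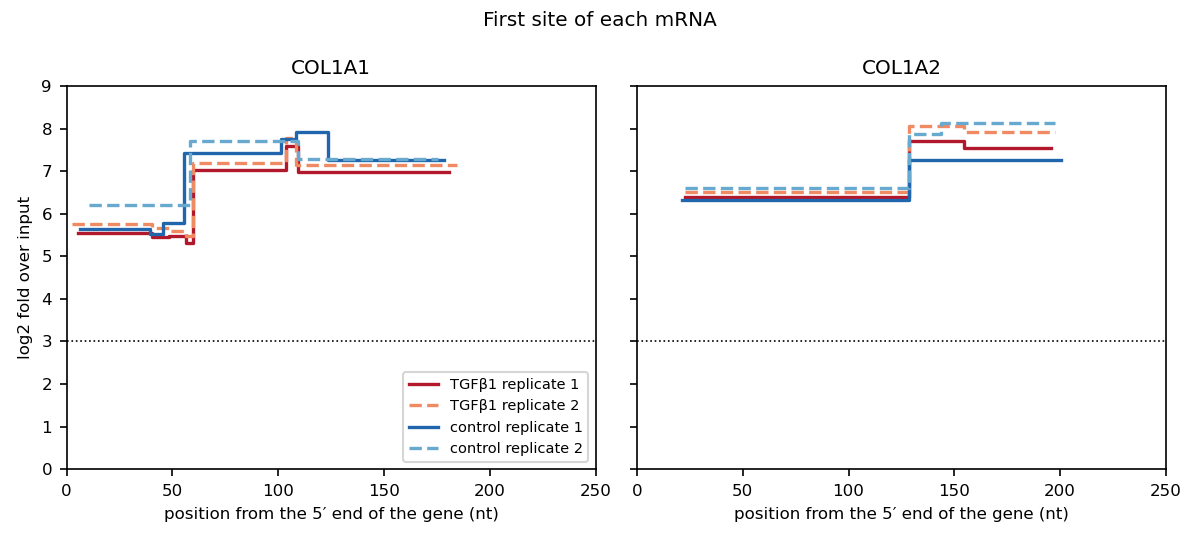
Log2 fold over input (y axis) of each cluster at the 5′ end of COL1A1 (left) and COL1A2 (right) against position from the 5′ end of the gene in nt, with 1 line for each library and a dotted line at 3. The higher fold begins at position 56 to 60 in COL1A1 and at 129 in COL1A2 in all 4 libraries.

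A stretch of the gene without any tested cluster followed the first site. Lengths here include introns, so they are not lengths of mRNA without binding. In COL1A1 it was 1504 and 1500 nt long in TGFβ1 replicates 1 and 2, against 1664 and 1509 nt in control replicates 1 and 2. In COL1A2 it was 2658 and 2656 nt in the TGFβ1 libraries, against 2653 and 2656 nt in the control libraries. Tested clusters covered 14.9% and 15.8% of the length of COL1A1 in TGFβ1 libraries, against 8.53% and 13.1% in control libraries, and 8.13% to 8.81% of COL1A2 in the 4 libraries. Control replicate 1 tested the least of COL1A1.

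Beyond the first site the fold was lower toward the 3′ end in both genes. Among COL1A2 clusters past position 500, Spearman's rho between position and log2 fold was −0.81 and −0.78 in TGFβ1 replicates 1 and 2 and −0.76 and −0.80 in control replicates 1 and 2, over 144 to 190 clusters. In COL1A1 it was −0.44 and −0.49 in the TGFβ1 libraries and −0.30 and −0.57 in the control libraries, over 88 to 188 clusters. Clusters of one library share its depth and neighbouring clusters share fragments, so these are descriptions. With the gene cut into 10 equal lengths, in the second of COL1A2 all 14 and 14 tested clusters were enriched in the TGFβ1 libraries, against 5 of 9 and 13 of 13 in the control libraries. In the ninth 0 of 24 and 0 of 30 were enriched in the TGFβ1 libraries, against 0 of 23 and 0 of 23 in the control libraries, with median log2 folds of 1.27 to 1.63.

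The 5′ side of COL1A2, up to the midpoint of the gene, held 46 of 46 and 58 of 62 enriched clusters in the TGFβ1 libraries, against 21 of 21 and 51 of 54 in the control libraries. Its 3′ side had 0 of 76 and 4 of 93 tested clusters enriched in the TGFβ1 libraries, against 0 of 71 and 3 of 74 in the control libraries. In COL1A1 the 3′ side had 4 of 68 and 8 of 88 enriched in the TGFβ1 libraries, against 1 of 36 and 4 of 51 in the control libraries. The median log2 fold of the 5′ side was above that of the 3′ side in 4 of 4 libraries, by 1.30 on average in COL1A2 and 0.72 in COL1A1 (exact sign-change test, two-sided, p = 0.125 each, the smallest possible, 0.281 adjusted). Without the first 500 nt, the differences were 1.06 to 1.49 in COL1A2 and 0.52 to 0.76 in COL1A1.

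Among the 138 protein-coding genes with at least 20 tested clusters in each library and clusters on both sides of the midpoint, 29.0% had the higher median on the 5′ side in all 4 libraries. By the size of this difference COL1A2 ranked 13th and 10th in TGFβ1 replicates 1 and 2 and 3rd and 2nd in control replicates 1 and 2. COL1A1 ranked 53rd and 43rd in the TGFβ1 libraries and 9th and 17th in the control libraries. The median difference over these genes was 0.35 and 0.37 in the TGFβ1 libraries and 0.09 and 0.09 in the control libraries. A higher 5′ side was therefore shared with many genes, and COL1A1 was above their median in every library but not near the top in the TGFβ1 libraries.

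**Figure D3:**
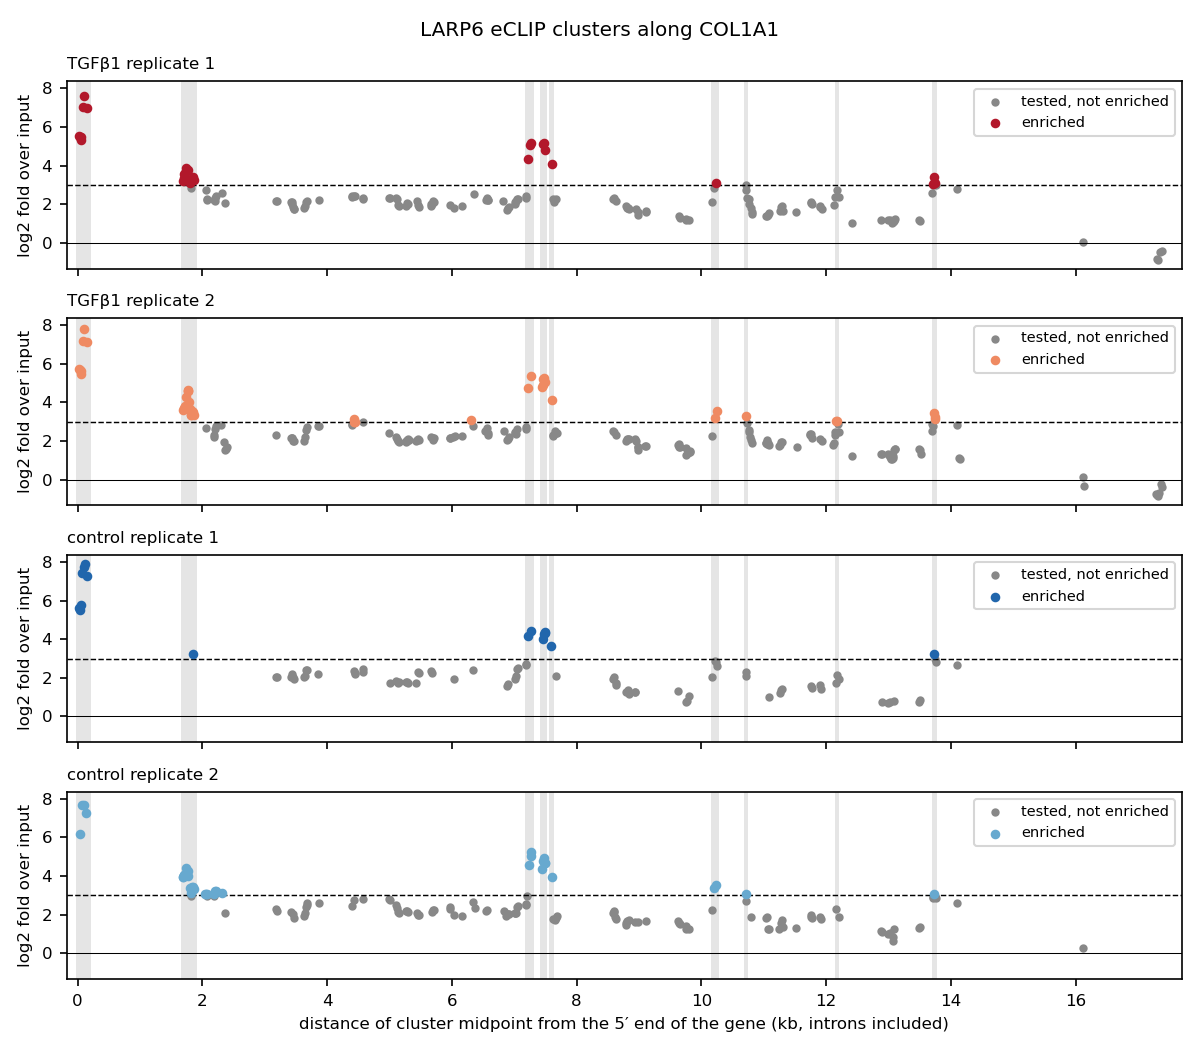
Log2 fold over input of every tested cluster of COL1A1 (y axis) against the distance of its midpoint from the 5′ end of the gene in kb (x axis), 1 panel for each library, with enriched clusters in colour, other clusters in grey, a dashed line at 3 and grey bands, widened slightly, at the 9 sites. The first site stands at 7.59 to 7.91, and the clusters at the far 3′ end are near or below 0.

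**Figure D4:**
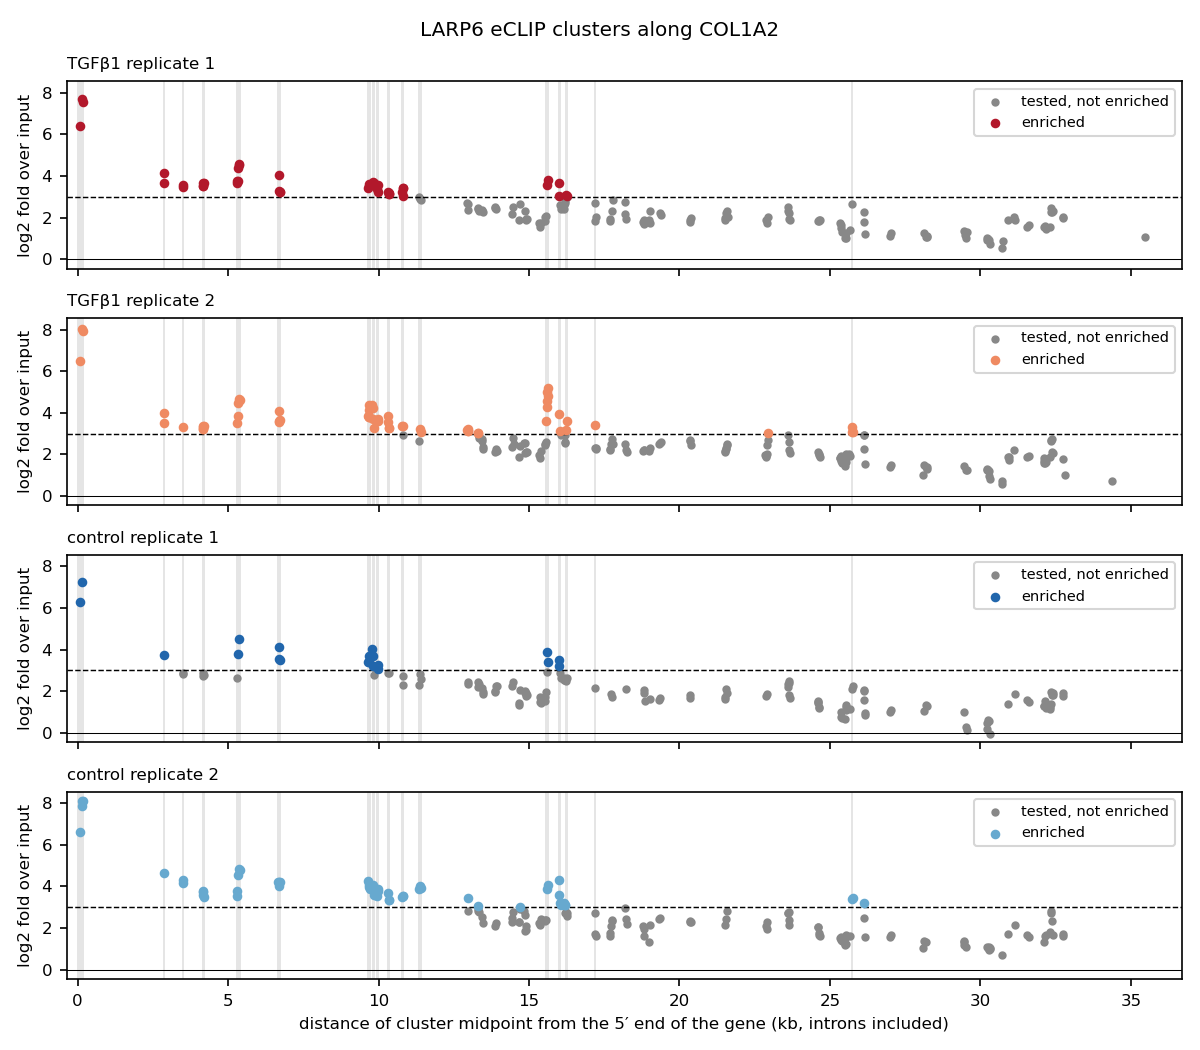
The same plot for COL1A2, with grey bands at its 17 sites. The fold declines from the first site toward the 3′ end in all 4 libraries, and only 4 clusters at most are enriched beyond the midpoint.

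COL1A1 had 9 sites, of which 7 held peaks of both lists, 2 of the TGFβ1 list alone and 0 of the control list alone. The TGFβ1 list held 37 peaks in the gene, 3.67% of its 1008 peaks, and the control list 18, 2.87% of its 627 peaks. Of the TGFβ1 peaks, 35 and 37 overlapped an enriched cluster of TGFβ1 replicates 1 and 2. Of the control peaks, 16 and 18 overlapped one of control replicates 1 and 2. After site 1, the highest sites were 3 and 4, at positions 7199 to 7283 and 7449 to 7502. The highest log2 fold of site 3 (chromosome 17, 50194349 to 50194433) was 5.17 and 5.36 in TGFβ1 replicates 1 and 2, against 4.43 and 5.25 in control replicates 1 and 2. That of site 4 (50194130 to 50194183) was 5.16 and 5.26 in the TGFβ1 libraries, against 4.36 and 4.94 in the control libraries. Site 4 was higher in both TGFβ1 libraries than in either control library, while at site 3 TGFβ1 replicate 1 lay below control replicate 2. Site 5, at positions 7591 to 7607, had 4.06 and 4.10 in the TGFβ1 libraries, against 3.67 and 3.94 in the control libraries. Sites 3 to 5 thus lay close together, with midpoints at 41.3% to 43.3% of the gene's length, and were enriched in all 4 libraries.

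Site 2 of COL1A1 differed most between the lists, with 15 TGFβ1 peaks and 1 control peak. It ran from position 1685 to 1879 (chromosome 17, 50199753 to 50199947), and its highest log2 fold was 3.87 and 4.63 in TGFβ1 replicates 1 and 2, against 3.25 and 4.41 in control replicates 1 and 2. Enriched clusters in it numbered 10 and 14 in the TGFβ1 libraries, against 1 and 12 in the control libraries. Control replicate 1 had a single tested cluster there, from position 1843 to 1868, which was enriched, and no tested cluster in the remainder of the site. Control replicate 2 lay between the TGFβ1 libraries in both count and fold, and the folds of the conditions overlapped. The 18 control peaks of COL1A1 became 36 enriched clusters without control replicate 1, and the 42 of COL1A2 became 21 without control replicate 2.

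The last sites of COL1A1 were near the limit. Site 6 (positions 10190 to 10249) had a highest log2 fold of 3.09 and 3.57 in the TGFβ1 libraries, against 2.85 and 3.53 in the control libraries. Site 9, the last (positions 13723 to 13756, chromosome 17, 50187876 to 50187909), had 3.39 and 3.44 in the TGFβ1 libraries, against 3.23 and 3.07 in the control libraries, and was enriched in all 4. The 2 sites of the TGFβ1 list alone were 7 and 8, of 7 and 8 nt. Site 7 had 2.99 and 3.29 in the TGFβ1 libraries, against 2.30 and 3.06 in the control libraries, so it was enriched in replicate 2 of each condition and in neither replicate 1. Site 8 had 2.75 and 3.03 in the TGFβ1 libraries, against 2.13 and 2.29 in the control libraries, and was enriched in TGFβ1 replicate 2 alone.

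COL1A2 had 17 sites, of which 14 held peaks of both lists, 3 of the TGFβ1 list alone and 0 of the control list alone. The TGFβ1 list held 53 peaks and the control list 42, which were 5.26% of the TGFβ1 list and 6.7% of the shorter control list. Of the TGFβ1 peaks, 50 and 53 overlapped an enriched cluster of TGFβ1 replicates 1 and 2. Of the control peaks, only 25 overlapped one of control replicate 1, while 42 overlapped one of control replicate 2. All of the control peaks and 98.1% of the TGFβ1 peaks were on the 5′ side of the midpoint. After site 1, the highest were sites 5 and 13. Site 5 ran from position 5302 to 5396 (chromosome 7, 94400196 to 94400290), with a highest log2 fold of 4.58 and 4.67 in TGFβ1 replicates 1 and 2, against 4.51 and 4.82 in control replicates 1 and 2. Site 13 ran from position 15574 to 15633 (94410468 to 94410527), with 3.81 and 5.20 in the TGFβ1 libraries, against 3.88 and 4.06 in the control libraries. TGFβ1 replicate 2 stood above the other 3 libraries at site 13, and the conditions overlapped at both sites. The other sites held by both lists, 2 to 4, 6 to 12 and 14, had mean log2 folds over the 4 libraries of 3.26 to 4.12.

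The sites of COL1A2 that only the TGFβ1 list held were its last 3. Site 15 (positions 16214 to 16256) had 3.11 and 3.62 in the TGFβ1 libraries, against 2.65 and 2.77 in the control libraries, and both TGFβ1 libraries were above both control libraries. Site 16 (positions 17174 to 17196) had 2.69 and 3.42 in the TGFβ1 libraries, against 2.14 and 2.73 in the control libraries. Site 17, the last (positions 25713 to 25731, chromosome 7, 94420607 to 94420625) and the only one beyond the midpoint, had 2.66 and 3.30 in the TGFβ1 libraries, against 2.12 and 3.40 in the control libraries. Control replicate 2 was therefore enriched at site 17 although the control list had no peak there, and values of the conditions overlapped at sites 16 and 17.

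**Figure D5:**
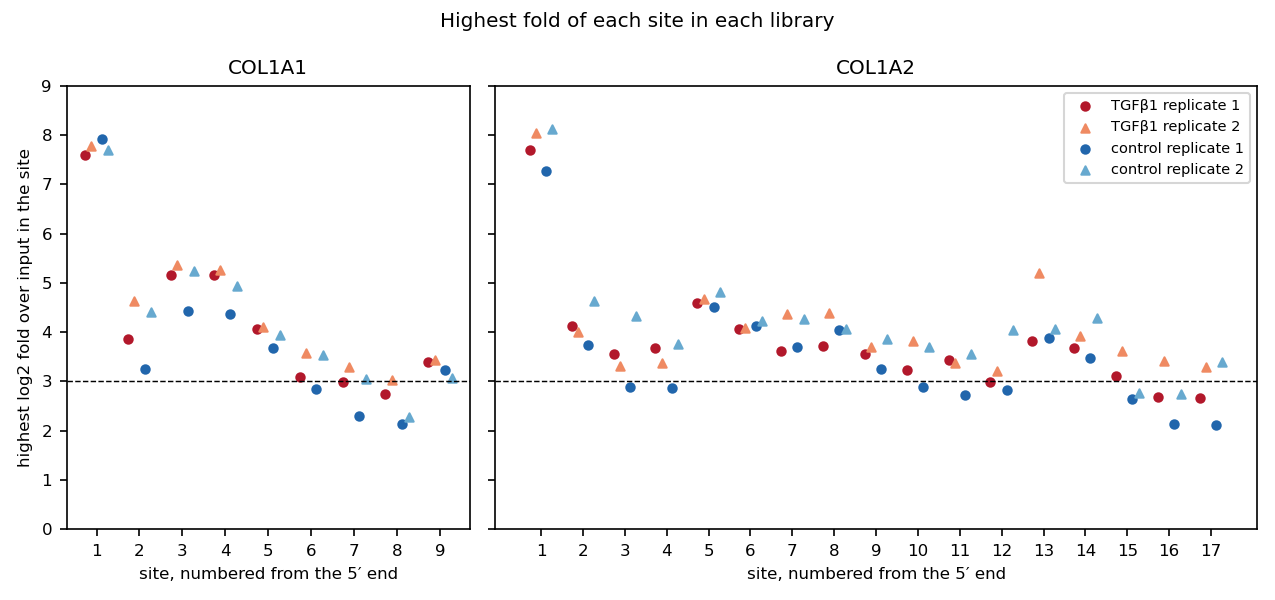
Highest log2 fold over input (y axis) in each site of COL1A1 (left, 9 sites) and COL1A2 (right, 17 sites), numbered from the 5′ end (x axis), with 1 point for each library, TGFβ1 left and control right, and a dashed line at 3. Site 1 stands apart in both genes, and control replicate 1 is the lowest of the 4 libraries at 7 sites of COL1A1 and 13 of COL1A2.

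The comparison of conditions asks whether LARP6 occupancy of type I collagen mRNA differs after TGFβ1. The share of tested clusters that were enriched averaged 19.0% ± 2.8 in TGFβ1 and 20.7% ± 5.5 in control libraries for COL1A1, and 30.0% ± 3.0 in TGFβ1 and 23.9% ± 13.4 in control libraries for COL1A2 (SD, n = 2 each). The differences, −1.70 and 6.14 percentage points, were within the spread of the libraries (exact permutation test, two-sided, p = 1 each, with 0.333 the smallest possible). Without control replicate 1 the COL1A2 difference was −3.33, that of COL1A1 was 0.28 without TGFβ1 replicate 1 and 2.21 without control replicate 2, so the direction of both rested on single libraries. As a ratio to all other regions of the same library, the mean difference, TGFβ1 minus control, was −7.45 in COL1A1 and −4.90 in COL1A2, a scaling added after the values were seen (exact permutation test, two-sided, p = 0.333 each, the smallest possible). The direction for COL1A2 therefore differed between the percent and the ratio. Tested clusters were more numerous in both TGFβ1 libraries than in both control libraries, with 164 and 195 against 95 and 146 in COL1A1 and 165 and 193 against 146 and 162 in COL1A2 (exact permutation test, p = 0.333 each, the smallest possible, adjusted 0.429). As a share of all tested clusters of the library the conditions overlapped: COL1A1 held 0.527% and 0.358% in the TGFβ1 libraries, against 0.185% and 0.366% in the control libraries. COL1A2 held 0.530% and 0.354% in the TGFβ1 libraries, against 0.285% and 0.406% in the control libraries.

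Sites 7 and 8 of COL1A1 and 15 to 17 of COL1A2 were sites only through the TGFβ1 list, a choice that favours TGFβ1. The conditions are therefore set side by side by the highest log2 fold in a site, over the sites of both lists. There the TGFβ1 mean was above the control mean at 6 of 7 COL1A1 sites and 8 of 14 COL1A2 sites. The median difference, TGFβ1 minus control, was 0.27 in log2 fold for COL1A1 (range −0.12 to 0.56) and 0.01 for COL1A2 (−0.34 to 0.54). Both TGFβ1 libraries exceeded both control libraries at COL1A1 sites 4, 5 and 9, the reverse held at COL1A2 site 6, and the libraries overlapped at the other 4 COL1A1 and 13 COL1A2 sites. The authors' folds of separately called clusters are set side by side here with no test. Counts of sites with higher or separated folds were not made for other genes, so no background share stands beside them. Libraries differed within a condition as well. Over all sites, those of the TGFβ1 list alone included, TGFβ1 replicate 2 was the highest at 8 of 9 COL1A1 sites. Control replicate 2 was the highest at 11 of 17 COL1A2 sites.

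Most TGFβ1 peaks had a control counterpart. In COL1A2, 47 of 53 TGFβ1 peaks overlapped a control peak by at least 1 nt (88.7%, 95% Wilson interval 77.4 to 94.7), and 40 of 42 control peaks overlapped a TGFβ1 peak (95.2%, 84.2 to 98.7). In COL1A1, 22 of 37 TGFβ1 peaks did (59.5%, 43.5 to 73.7), and 18 of 18 control peaks did (100%, 82.4 to 100). Over all peaks of the lists, 61.0% of TGFβ1 peaks and 79.6% of control peaks overlapped one of the other list. The share of TGFβ1 peaks in COL1A1 was thus near that of all TGFβ1 peaks, and that in COL1A2 was above it. Of the 15 COL1A1 TGFβ1 peaks without a control peak, 12 lay in site 2, and 12 overlapped an enriched cluster of at least 1 control library. Of the 6 in COL1A2, 3 did. The remaining 3 peaks of each gene overlapped tested control clusters, the highest of them at log2 folds of 2.29 to 2.97 in COL1A1 and 2.65 to 2.77 in COL1A2. Each TGFβ1 peak without a control peak thus overlapped a tested control cluster. Without control replicate 1, the COL1A1 share was 91.9%.

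The first 500 nt of the gene, introns included, held 7 of 37 TGFβ1 peaks of COL1A1 (18.9%, 95% Wilson interval 9.48 to 34.2) and 5 of 18 control peaks (27.8%, 12.5 to 50.9). In COL1A2 it held 3 of 53 TGFβ1 peaks (5.66%, 1.94 to 15.4) and 4 of 42 control peaks (9.52%, 3.77 to 22.1). Over protein-coding genes, 11.9% of TGFβ1 peaks and 13.5% of control peaks lay in this window. The peaks of each gene there were all pieces of its site 1. The intervals take peaks as independent, so they cannot set a gene against that share. With peaks joined at gaps of at most 20 nt, the share was 11.1% for TGFβ1 and 14.3% for control in COL1A1. In COL1A2 it was 5.88% for TGFβ1 and 7.14% for control. With a limit of 4 on the log2 fold, 35.0% of TGFβ1 and 38.5% of control peaks of COL1A1 lay there, and 16.7% of TGFβ1 and 36.4% of control peaks of COL1A2. No share over all genes was computed at this limit, so these shares have no background here.

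Beyond the first site, many stretches of clusters had lengths that recur in collagen genes. The exons that encode the triple helix of fibrillar collagens are built of whole glycine repeats and are often 54 nt long or of a few related lengths such as 45 and 99 nt. Where abutting clusters of a library were joined, COL1A2 had 19 of 56 and 22 of 56 blocks of exactly 54 nt in TGFβ1 replicates 1 and 2, against 16 of 55 and 17 of 55 in control replicates 1 and 2. COL1A1 had 7 of 64 and 9 of 62 in the TGFβ1 libraries, against 3 of 47 and 6 of 60 in the control libraries. Elsewhere 1.28% and 1.34% of blocks had this length in the TGFβ1 libraries and 1.58% and 1.47% in the control libraries. COL3A1 had 13.5% and 18.6% in the TGFβ1 libraries and 9.62% and 11.7% in the control libraries, above COL1A1 in each, where the shares were 10.9% and 14.5% in the TGFβ1 libraries and 6.38% and 10.0% in the control libraries. In COL1A2, 27 blocks had the same ends in all 4 libraries, of which 16 were 54 nt, 4 were 45 nt and 3 were 99 nt long. Of 5 such blocks in COL1A1, 3 were 54 nt long. Among the sites, COL1A2 sites 6, 8, 9, 10 and 12 and COL1A1 site 4 were 54 nt long and COL1A2 site 7 was 45 nt. These lengths were counted after the blocks had been seen, and they were not placed against exons.

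Few genes were like these. By Euclidean distance between log2 counts of enriched clusters (plus 1) over the 4 libraries, the 5 protein-coding genes nearest to COL1A1 were COL3A1, COL1A2, LRP1, CCNI and COL5A1, at distances of 0.78, 1.14, 2.61, 3.14 and 3.47. Those nearest to COL1A2 were COL1A1, COL3A1, LRP1, CCNI and RNPEPL1, at 1.14, 1.75, 3.71, 4.27 and 4.60. COL1A2 had the most enriched clusters of all protein-coding genes in every library. COL1A1 was the second in TGFβ1 replicates 1 and 2 and control replicate 2 and the third in control replicate 1, where COL3A1 was ahead of it. Counts of clusters grow with how finely a transcript was divided, so this order is one of clusters and not of bound molecules. COL3A1, the type III chain that joins type I collagen in fibrils, had 16.5% and 17.6% of its clusters enriched in the TGFβ1 libraries, against 16.9% and 23.7% in the control libraries. Its highest log2 fold was 9.14 and 9.48 in the TGFβ1 libraries, against 9.36 and 9.06 in the control libraries, above both type I genes in every library. Its reproducible peaks were spread over both sides of the midpoint, with 15 of 27 TGFβ1 and 15 of 26 control peaks on the 5′ side, against 52 of 53 and 42 of 42 in COL1A2 and 31 of 37 and 15 of 18 in COL1A1. This difference was not tested.

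Genes that work with type I collagen were covered by 3 lists of 46 genes. Of the other fibrillar collagens, 3 of 4 genes tested in both TGFβ1 libraries had a reproducible peak and 2 of 4 tested in both control libraries, where 7.08% and 3.87% of all tested protein-coding genes did. They were COL3A1 and COL5A1 in both lists and COL5A2 in the TGFβ1 list alone. Of the genes for procollagen maturation, 5 of 23 had a TGFβ1 peak and 2 of 24 a control peak. LOXL2, a lysyl oxidase-like crosslinking enzyme, had its highest peak at a log2 fold of 4.45 in the TGFβ1 list and 3.80 in the control list. P4HA2, a subunit of prolyl 4-hydroxylase, and BMP1, which cuts the C-propeptide from procollagen, had peaks of 4.15 and 3.85 in the TGFβ1 list and none in the control list. P4HA2 had 0 and 2 enriched clusters in TGFβ1 replicates 1 and 2, against 0 and 1 in control replicates 1 and 2, and BMP1 had 0 and 3 in the TGFβ1 libraries, against 0 and 1 in the control libraries. Enriched clusters of both genes were thus in the second replicates of both conditions. Of 9 tested genes for LARP6 and proteins known to act with it or on collagen mRNA, 1 had a peak in each list, LARP6 itself. Its highest log2 fold was 6.51 in the TGFβ1 list and 6.23 in the control list. These lists were chosen with earlier results of these data known, and the counts are descriptions.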

How the data were processed

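LARP6 eCLIP was analysed in 8 samples of hepatic stellate cells, with 4 immunoprecipitated libraries and 2 lists from both replicates entering through the authors' peak lists. STAR, UMI-tools and cutadapt and the build GRCh38 are named without versions in the submitters' processing notes. Which peak caller was used, how input entered and how replicates were joined is not given in the sources used here. No list has a header, and units were read from the ranges: the deposited log2 values as a log2 fold over size-matched input, and the deposited −log10 values as a −log10 p-value with a cap at 400.

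Regions were taken by midpoint within RefSeq GRCh38.p14 bounds of 59792 genes. Strand came from the RefSeq promoter table or, for genes it lacks (both type I collagen genes), from the majority of clusters. Enriched meant a log2 fold and a −log10 p of at least 3, sites were peaks joined at gaps of at most 20 nt, and overlap was at least 1 nt. For other genes, a region within several genes was given by priority to small RNAs, then protein-coding genes, and among equals to the shortest. Library values were compared by exact tests. The members, lists and limits were chosen with earlier results of these data known. The sites described are the first, the 3 highest by mean fold over the 4 libraries, the last and those in 1 list alone, and other sites named were chosen after their values were seen. Alternatives were other limits, windows and overlaps, a replicate block, and leaving out single libraries. The code was tested on simulated data. The code ran in Python 3.11.15 (pandas 2.3.3, SciPy 1.17.1, NumPy 2.4.6), with figures from matplotlib 3.10.9.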

Additional observations from a re-analysis of the deposited data

How the results depend on the processing

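Of 90 recomputed values, 68 kept their direction or stayed within their interval or 1.5 times the count, 16 moved further and 6 changed sign. The 68 include settings that returned exactly the main value in both genes, so this tally overstates how far the results were tested. Those settings were the stricter −log10 p limit, any overlap with the gene, the other windows at the 5′ end and both replicate blocks described below. The difference in the enriched share, TGFβ1 minus control, was 2.12 percentage points in COL1A1 with a fold limit of 2 and −1.06 in COL1A2 with a limit of 4. As a ratio to all other regions of the library, added after the values were seen, the difference was −7.45 in COL1A1 and −4.90 in COL1A2. With 1 library left out the difference in percent ranged from −5.61 to 2.21 and from −3.33 to 15.6. With a fold limit of 4, 20 TGFβ1 peaks of COL1A1 were left, and 18 TGFβ1 and 11 control peaks of COL1A2. The share in the first 500 nt was then 35.0%, 16.7% and 36.4%, with no share over all genes computed at this limit. The share of TGFβ1 peaks that overlapped a control peak was 75.0% in COL1A1 and 66.7% in COL1A2. Against enriched clusters of either control library that share was 91.9% in COL1A1. A list made here from control replicate 1 clusters that overlap replicate 2 held 21 COL1A2 peaks.

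With 1 replicate standing for its condition, control peaks numbered 16 to 36 in COL1A1 and 21 to 54 in COL1A2, and TGFβ1 peaks 28 to 41 and 46 to 62. The control share in the first 500 nt of COL1A1 was 11.1% to 43.8%. TGFβ1 peaks that overlapped a control peak were 53.7% to 91.9% in COL1A1, highest without control replicate 1, and 60.4% to 94.3% in COL1A2, lowest without control replicate 2. The cause was not tested.

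With the replicate block the differences were the same by arithmetic, −1.70 and 6.14, with exact p = 1 each. The crossed form named below fixes them in the same way, so neither is a check on the differences. A block leaves only 2 pairs, too few for a small p-value. Deviations of same-numbered libraries over the 26 sites had a correlation of −0.13, and a crossed replicate block, added after this was seen, also gave exact p = 1 each. The labels give no shared batch for a number, so the block was not used. Depth is unknown, so an unenriched or untested place may be one with few reads.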

Other observations

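Of the enriched clusters outside the sites, most were in the second replicates. In COL1A1 they numbered 1 and 5 in TGFβ1 replicates 1 and 2, against 0 and 7 in control replicates 1 and 2, and in COL1A2 1 and 9 in the TGFβ1 libraries, against 0 and 9 in the control libraries. None exceeded a log2 fold of 3.44. All 7 in COL1A1 of control replicate 2 lay between positions 2042 and 2313, downstream of site 2, and the 5 of TGFβ1 replicate 2 lay elsewhere, 3 of them between 4421 and 4452. In COL1A2 both second replicates were enriched at position 12953 and again at 13291, where the first replicates were not.

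The far 3′ end of COL1A1 had low folds in the TGFβ1 libraries. In the last of 10 equal lengths of the gene the median log2 fold was −0.50 over 5 clusters and −0.54 over 8 clusters in TGFβ1 replicates 1 and 2, against 0.27 for the single cluster of control replicate 2 and no tested cluster in control replicate 1. That control cluster, at positions 16112 to 16124, overlapped TGFβ1 clusters of 0.05 and 0.14 in replicates 1 and 2. Most negative TGFβ1 folds were from position 17271 on, where the control libraries had no tested cluster, so these medians compare different places. In the ninth length a cluster reached 2.79 and 2.85 in the TGFβ1 libraries, against 2.65 and 2.58 in the control libraries, below the limit of 3 in all 4.

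Site folds were compared between libraries. Over the 9 sites of COL1A1, Pearson's r between libraries was 0.96 to 0.99, and over the 8 without the first site 0.91 to 0.98. Over the 17 sites of COL1A2 it was 0.88 to 0.96, and over the 16 without the first site 0.49 to 0.91, lowest between TGFβ1 replicate 2 and control replicate 2. Sites were chosen from peaks of these same libraries, so r is a description.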
